A study of Saccharomyces cerevisiae BY4741 with 6 samples.

Results

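The transcripts described here are those of 10 transcription factors of the yeast stress responses, out of 5449 genes measured. They are the zinc finger factors *MSN2* and *MSN4*, the heat shock factor *HSF1*, and 7 members of the Yap family of basic leucine zipper factors, *YAP1*, *CAD1* (also called *YAP2*), *YAP3*, *CIN5* (also called *YAP4*), *YAP5*, *YAP6* and *YAP7*. They were taken by gene symbol from the annotation of the array, and each of the 10 has 1 probe set. All cultures were the haploid laboratory strain BY4741 in the rich medium YPD at 30 °C, and no mutant of any of these factors was among them. Neomycin sulfate, an aminoglycoside antibiotic, was present at 10 mg/ml for 4 h in 3 cultures, and 3 control cultures were incubated for the same time without it. The comparison asks how the transcriptome of yeast differs after this exposure.

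Msn2 and Msn4 are related activators that bind the stress response element in front of many general stress genes. Protein kinase A keeps them in the cytoplasm of growing cells, and they enter the nucleus on many kinds of stress. Hsf1 is the essential activator of chaperone genes and is held back by Hsp70 chaperones when proteins are folded. Yap1 is kept out of the nucleus by the exportin Crm1 until it is oxidised, after which it activates genes of the thioredoxin and glutathione systems. These controls act largely on the protein, whereas the arrays measured RNA and neither the place nor the activity of a factor. In a bulk culture, fewer cells with a transcript and less of it per cell cannot be told apart.

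One Affymetrix Yeast Genome 2.0 array was used for the RNA of each culture, which gave 6 arrays with n = 3 per group. The values are GCRMA signals on the log2 scale, where a step of 1 is a doubling. They ran from 2.22 to 14.31, and the arrays correlated with each other at r = 0.979 to 0.993 over probe sets. *URA3*, *LEU2* and *MET17*, which are disrupted in BY4741, had group means of 3.45 to 4.75, and the highest mean of the 3 genes over all arrays, 4.68, served as a mark of background. Transcripts specific to a cells, such as *MFA1* and *STE2*, had group means of 10.52 to 12.61, whereas those specific to α cells lay between 3.25 and 8.29. The median gene was 0.11 lower on neomycin replicate 1 than in the untreated mean, against 0.03 higher on replicate 2 and 0.05 lower on replicate 3. Without neomycin replicate 1, limma called 119 genes higher and 23 lower, compared with 23 and 5 on all 6 arrays, so calls that appear without that array are given beside the main ones. The number of arrays limits the precision of every value.

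None of the 10 factor transcripts passed the test for a difference between neomycin and untreated cultures. The log2 fold change, neomycin minus untreated, ranged from −0.22 for *YAP3* to 0.33 for *YAP5*, with 5 factors positive and 5 negative. Limma's test with Benjamini-Hochberg adjustment over all genes called 0 of the 10 (adjusted p from 0.420 to 0.971), against 0.514% of all genes at an adjusted p under 0.05. At an unadjusted p under 0.05 the count was also 0, while 13.4% of all genes passed. The criteria of the study's methods are a ratio of mean signals at or above 1.7, or at or below 0.6, together with a Cyber-T p up to 0.05. These ratio criteria also gave 0 of 10, against 1.82% of all genes. With so low a background, a count of 0 among 10 genes is not particular to the factors. The 95% intervals bound the changes: all 10 lay within 2-fold in either direction and 9 within 1.7-fold, *CIN5* reaching 1.702 at its upper end.

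**Figure D1:**
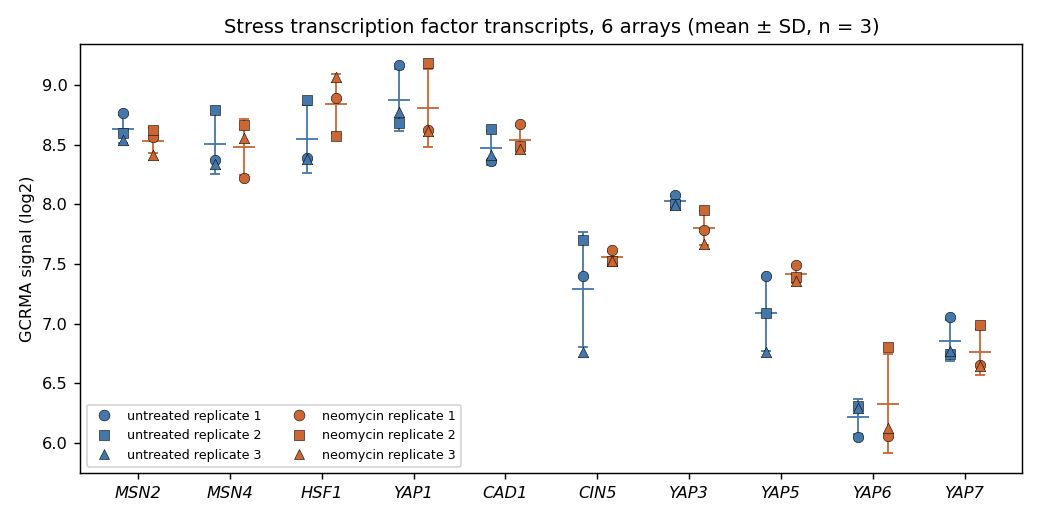
GCRMA signal (log2, y axis) of the 10 stress factor transcripts on each of the 6 arrays, untreated in blue and neomycin in orange, with the symbol giving the replicate number and the bars the group mean ± SD (n = 3). The groups overlap for every factor except *YAP3*, whose 3 neomycin values (7.67 to 7.95) lie below the 3 untreated ones (7.996 to 8.079), and heights of different factors are not comparable because each has its own probe set.

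*MSN2* read 8.77, 8.60 and 8.54 on untreated replicates 1, 2 and 3, and 8.57, 8.62 and 8.42 with neomycin. The groups overlapped, with means of 8.63 ± 0.117 and 8.54 ± 0.108 (SD, n = 3). Its log2 fold change was −0.10 with a 95% interval of −0.36 to 0.16 (limma, adjusted p = 0.773). For *MSN4*, which in yeast is the partner whose own gene is stress-inducible, the untreated values were 8.38, 8.80 and 8.34 and the neomycin values 8.22, 8.67 and 8.56. Here replicate 2 was the highest array in both groups, and the means, 8.50 ± 0.252 and 8.48 ± 0.232 (SD, n = 3), lay closer together than the arrays of either group. The log2 fold change of *MSN4* was −0.02 with an interval of −0.41 to 0.36 (limma, adjusted p = 0.971). It had no fixed sign, being 0.11 without neomycin replicate 1, 0.12 without untreated replicate 2, 0.03 after quantile normalisation and 0.01 after median centring.

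*HSF1* read 8.39, 8.88 and 8.38 on the untreated arrays and 8.90, 8.58 and 9.07 with neomycin. Neomycin replicates 1 and 3 were above every untreated array, whereas replicate 2 was below untreated replicate 2. The means were 8.55 ± 0.287 and 8.85 ± 0.2498 (SD, n = 3), which gave a log2 fold change of 0.30 with an interval of −0.12 to 0.71 (limma, adjusted p = 0.531). Of all genes, 16.7% had a larger change in either direction. With untreated replicate 2 left out the change of *HSF1* was 0.46 and its neomycin arrays were all higher. In that run 11.2% of all genes lay so. Without neomycin replicate 2 the change was 0.43 and the arrays were again all higher, as in 7.85% of all genes. With neomycin replicate 3 left out the change of *HSF1* was 0.19.

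*YAP1*, the oxidative stress factor, read 9.17, 8.69 and 8.77 without neomycin and 8.62, 9.18 and 8.61 with it. Untreated replicate 1 and neomycin replicate 2 were the high arrays, and the rest lay between 8.61 and 8.77.
The group means were 8.88 ± 0.257 and 8.81 ± 0.326 (SD, n = 3), and the log2 fold change was −0.07 with an interval of −0.51 to 0.37 (limma, adjusted p = 0.918). Its sign turned when untreated replicate 1 (0.08), neomycin replicate 1 (0.02) or neomycin replicate 3 (0.03) was left out. *CAD1*, the paralog of *YAP1* named for the cadmium resistance it gives in high dosage, read 8.37, 8.63 and 8.41 on untreated arrays and 8.67, 8.49 and 8.46 on neomycin arrays. These values overlapped within a span of 0.30. Its log2 fold change was 0.07 with an interval of −0.20 to 0.34 (limma, adjusted p = 0.856), and it ran from 0.01 without neomycin replicate 1 to 0.15 without untreated replicate 2.

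*CIN5*, a Yap factor of the response to salt and osmotic stress, was the most variable of the 10. It read 7.40, 7.70 and 6.76 on the untreated arrays, while the neomycin arrays were tight at 7.61, 7.53 and 7.52. The difference of 0.27 (interval −0.23 to 0.77, limma adjusted p = 0.655) came with an untreated SD of 0.480 against 0.0511 with neomycin (n = 3 each), and all neomycin values lay below untreated replicate 2. It rested on the low untreated replicate 3, without which the change was 0.01, and it was 0.48 without untreated replicate 2. *YAP6*, its paralog, read 6.05, 6.31 and 6.29 on untreated and 6.06, 6.81 and 6.12 on neomycin arrays. Only neomycin replicate 2 was above the untreated range. The log2 fold change of *YAP6* was 0.11 with an interval of −0.36 to 0.57 (limma, adjusted p = 0.873), and −0.13 without neomycin replicate 2.

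*YAP5* is the activator that in yeast turns on the vacuolar iron importer gene *CCC1* when iron is plentiful. It read 7.40, 7.09 and 6.77 without neomycin and 7.49, 7.39 and 7.36 with it. The neomycin arrays were again the tighter group, with means of 7.09 ± 0.316 and 7.42 ± 0.0706 (SD, n = 3), and untreated replicate 1 lay within their range. This was the largest of the 10 changes, 0.33 with an interval of −0.04 to 0.70 (limma, adjusted p = 0.420), and 12.9% of all genes changed more. It stayed positive when any array was left out, from 0.17 without untreated replicate 3 to 0.49 without untreated replicate 1. The transcript of its paralog *YAP7*, which encodes a repressor of the flavohemoglobin gene, read 7.05, 6.74 and 6.77 on untreated and 6.65, 6.98 and 6.64 on neomycin arrays. Neomycin replicates 1 and 3 were below the untreated range and replicate 2 was inside it. Its change was −0.10 with an interval of −0.42 to 0.22 (limma, adjusted p = 0.835), and 0.00 without untreated replicate 1.

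*YAP3* was the only factor whose groups did not overlap. Its untreated values were 8.079, 8.004 and 7.996 and its neomycin values 7.78, 7.95 and 7.67. Every neomycin array was thus below every untreated one, replicate 2 by the least. Among all genes, 12.8% had neomycin arrays that were all lower and 5.58% all higher, so 1 of 10 factors lower and 0 higher is close to that background. The means were 8.03 ± 0.0458 and 7.80 ± 0.142 (SD, n = 3), and the log2 fold change was −0.22 with an interval of −0.48 to 0.03 (limma, adjusted p = 0.420). With 1 array left out at a time it ran from −0.30 to −0.16.

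**Figure D2:**
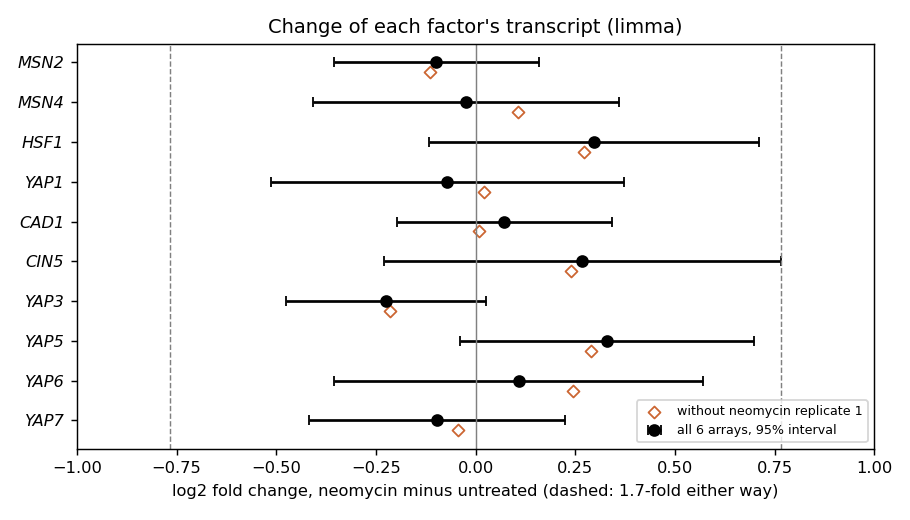
Log2 fold change of each factor's transcript, neomycin minus untreated (x axis), as estimated by limma from 6 arrays with its 95% interval (black) and without neomycin replicate 1 (open orange diamonds); dashed lines mark 1.7-fold in either direction. Every interval includes 0, and only that of *CIN5*, from −0.23 to 0.77, reaches a dashed line.

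Over the 10 factors together, the values were close to those of all genes. The median log2 fold change of the 10 was 0.02 against −0.05 over all genes, and the median size of the change regardless of sign was 0.103 against 0.127. Their standard errors were larger, with a median of 0.163 against 0.128, and 6 of the 10 varied more over the 6 arrays than the median gene did (SD 0.173). All 10 were above the background mark on every array, from 6.05 to 9.18. *CIN5*, *YAP5*, *YAP6* and *YAP7* were nevertheless among the 1363 dimmest genes measured. Without neomycin replicate 1 limma again called 0 of 10, with a lowest adjusted p of 0.512.

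All factors but *HSF1* and *YAP3* have a paralog among the others, and each pair was compared within an array by subtracting one log2 signal from the other. A difference that is unequal between the groups means an unequal change of the paralogs, whereas its height depends on the probes. For *MSN4* minus *MSN2* the difference was −0.39, 0.20 and −0.20 on the untreated arrays and −0.35, 0.04 and 0.14 on the neomycin arrays. The means, −0.13 ± 0.300 and −0.05 ± 0.259 (SD, n = 3), differed by 0.08 (exact permutation test, 2-sided, p = 0.9, adjusted over the 4 pairs p = 0.9). In this pair both groups ran from clearly negative to positive. For *CAD1* minus *YAP1* the means were −0.41 ± 0.377 untreated and −0.26 ± 0.382 with neomycin, a difference of 0.14 (SD, n = 3, exact permutation p = 0.6, adjusted p = 0.8). Those of *YAP6* minus *CIN5* were −1.07 ± 0.520 and −1.23 ± 0.444, a difference of −0.16 (SD, n = 3, exact permutation p = 0.5, adjusted p = 0.8). The groups overlapped in these 3 pairs, and each of the 3 differences turned its sign when a single array was left out.

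Only for *YAP7* and *YAP5* did the groups not overlap. *YAP7* minus *YAP5* was −0.34, −0.35 and 0.01 on the untreated arrays and −0.84, −0.41 and −0.72 on the neomycin arrays. All 3 neomycin values were lower than all 3 untreated ones, with means of −0.65 ± 0.224 and −0.23 ± 0.205 (SD, n = 3). The difference of −0.43 between the groups had an exact permutation p of 0.1, which is the smallest that 3 against 3 arrays can give, and an adjusted p of 0.4 over the 4 pairs. It was negative with any array left out, between −0.55 and −0.31, and it did not pass the threshold.

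**Figure D3:**
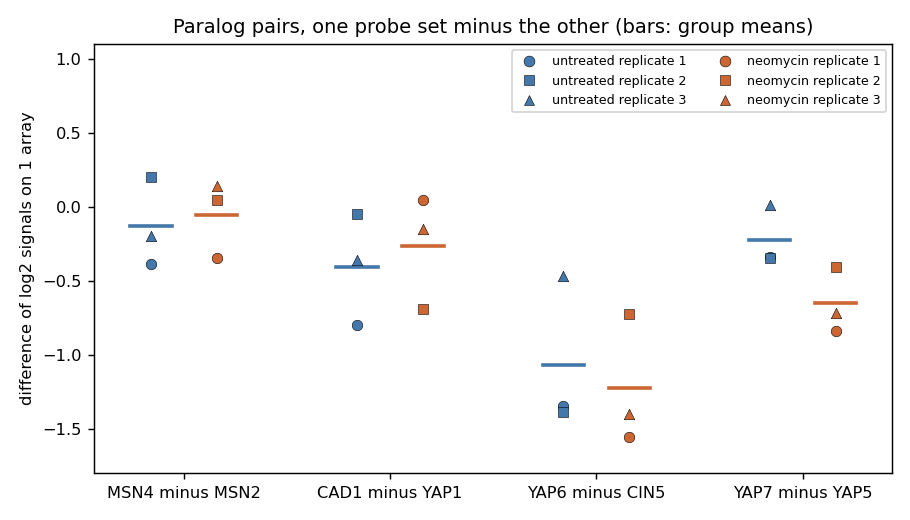
Difference of the log2 signals of the paralogs on each array (y axis) for the 4 pairs, untreated in blue and neomycin in orange, with bars at the group means. The groups overlap except for *YAP7* minus *YAP5*, where the neomycin arrays lie from −0.84 to −0.41 and the untreated arrays from −0.35 to 0.01.

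The genes that the factors control were followed through lists of established targets. These lists were written with earlier results of these arrays known, so their counts beside all genes are a description and no test. Of 39 targets of Msn2 and Msn4, 35 had a positive and 4 a negative log2 fold change, and the median was 0.45. For 15 of the 39 (38.5%) every neomycin array was above every untreated one, compared with 5.58% of all genes, and 0 were below. Limma called 1 of them higher, against 0.422% of all genes, and the ratio criteria took 10 as induced, against 1.45%. The called gene was *DDR2*, a small stress protein gene that responds to many stresses, which read 9.33, 9.22 and 9.14 on untreated and 10.31, 10.47 and 10.99 on neomycin arrays. Its arrays were far apart, and its log2 fold change was 1.36 ± 0.17 (SE, limma, adjusted p = 0.0401), a ratio of 2.61.

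*HSP12*, which encodes a small membrane-bound stress protein, read 10.15, 10.85 and 10.90 without neomycin and 11.71, 11.90 and 12.58 with it. These groups did not overlap either, although the log2 fold change of 1.43 did not pass the test (limma, adjusted p = 0.0647, ratio 2.72). *CTT1*, the cytosolic catalase T gene, read 7.28, 7.002 and 6.99 and then 7.50, 8.23 and 8.64. The neomycin arrays were all higher, replicate 1 least so, and the log2 fold change was 1.03 (limma, adjusted p = 0.167, ratio 2.14). By contrast, the small heat shock protein gene *HSP26* had a log2 fold change of −0.20 (limma, adjusted p = 0.780) with overlapping arrays. The other genes past the ratio criteria were *TFS1* (ratio 1.72), an inhibitor of carboxypeptidase Y, *RTN2* (1.98), a reticulon of the endoplasmic reticulum, *RTC3* (1.90), *TMA10* (2.32), *SPG4* (1.94), *RGI1* (1.78), and *PRB1* (1.72), the vacuolar protease B. *TMA10* and *SPG4* had overlapping arrays. *SPG4* was near background, with an untreated mean of 4.96, and its untreated replicate 2 (4.57) lay under the mark of 4.68.

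The levels of this list followed the neomycin arrays unevenly. Relative to the untreated mean of each gene, the median target of Msn2 and Msn4 stood at 0.14 on neomycin replicate 1, 0.76 on replicate 2 and 0.43 on replicate 3, and between −0.06 and 0.04 on the untreated arrays. Neomycin replicate 1 was thus the lowest of the treated arrays, while the *MSN2* and *MSN4* transcripts on it differed from their untreated means by −0.06 and −0.28. On replicate 2, where the list was highest, *MSN2* was at −0.01 and *MSN4* at 0.16, and on replicate 3 they were at −0.22 and 0.05. Without replicate 1 the median change of the list was 0.61 and limma called 13 of the 39 higher, against 2.18% of all genes. With any of the other 5 arrays left out it called 0 of the 39. Over all genes limma then called 1 higher without untreated replicate 3. It called 0 higher without untreated replicate 1 or 2, or neomycin replicate 2 or 3. A count of 0 in these runs is thus not particular to the list. What sets neomycin replicate 1 apart was not tested. After quantile normalisation or median centring 20 of the 39 were above, while the share of all genes above rose to 8.5% and 8.75%.

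**Figure D4:**
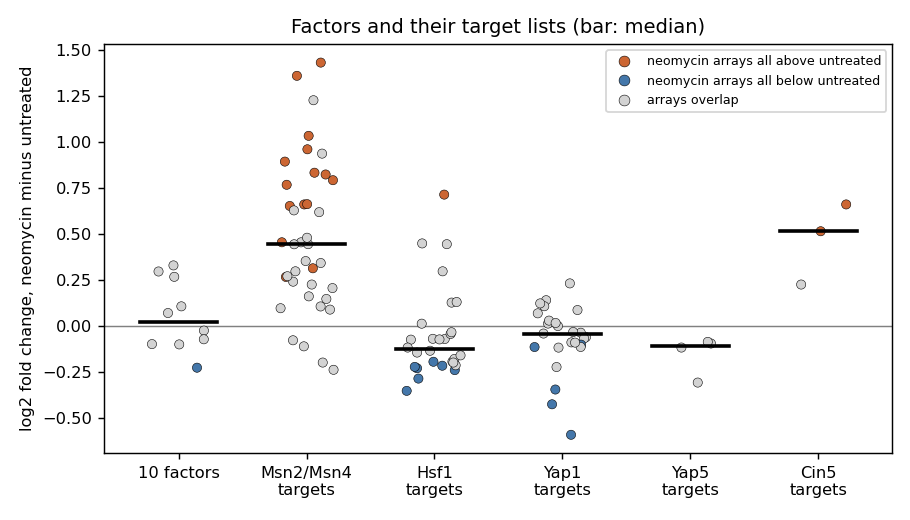
Log2 fold change, neomycin minus untreated (y axis), of the 10 factors and of the genes in 5 target lists; each point is a gene, coloured where its neomycin arrays all lie above (orange) or below (blue) the untreated arrays, and bars are medians. The median is 0.45 for the 39 Msn2/Msn4 targets and 0.52 for the 3 Cin5 targets, against 0.02 for the factors, −0.12 for the 28 Hsf1 targets, −0.04 for the 25 Yap1 targets and −0.10 for the 4 Yap5 targets.

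The targets of Hsf1 had mostly small negative values. Of 28 chaperone and related genes, limma called 0 in either direction on all 6 arrays, against 0.514% of all genes. The ratio criteria also took 0, against 1.82% of all genes, so neither count is particular to the list. At an unadjusted p under 0.05, 1 gene was up and 2 were down, while 13.4% of all genes passed. Without neomycin replicate 1 limma called 2 of them higher, when it called 2.18% of all genes higher. They were *UBI4* at 0.89 (adjusted p = 0.0342) and *HSP78*, a mitochondrial disaggregase gene, at 0.70 (adjusted p = 0.0338). On all 6 arrays the log2 fold changes were negative for 21 and positive for 7, with a median of −0.12. For 7 of the 28 (25%) all neomycin arrays were below the untreated ones, against 12.8% of all genes. For 1 they were above, against 5.58% of all genes. The Hsp70 genes *SSA1*, *SSA2* and *SSA4* had changes of −0.19, −0.07 and −0.04, and the Hsp90 gene *HSP82* one of −0.14 (limma, adjusted p from 0.640 to 0.942), where *SSA1* and *SSA2* are near-identical genes whose probes may share signal. The ends of the list, named after their values were seen, were *FES1*, a nucleotide exchange factor of Hsp70, at −0.35 (adjusted p = 0.227), and the polyubiquitin gene *UBI4* at 0.71 (adjusted p = 0.181). *HSP26*, *HSP104* and *HSP42* stand on the lists of both Msn2/Msn4 and Hsf1, and their changes were −0.20, 0.30 and 0.45. The 25 genes of the Hsf1 list alone had a median of −0.13, and the 36 of the Msn2/Msn4 list alone one of 0.46.

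Limma called 0 of the 25 Yap1 targets and the ratio criteria took 0, against 0.514% and 1.82% of all genes. With shares so low, a count of 0 is not particular to the list. At an unadjusted p under 0.05 there were 0 higher and 3 lower, while 13.4% of all genes passed. Their log2 fold changes lay between −0.59 and 0.23, and the median of −0.04 ran from −0.09 to 0.01 with 1 array left out. The thioredoxin gene *TRX2* was at −0.06, *GSH1*, for the first enzyme of glutathione synthesis, at −0.04, the thioredoxin reductase gene *TRR1* at −0.07 and the glutathione reductase gene *GLR1* at −0.09 (limma, adjusted p from 0.799 to 0.945). In 5 of the 25 the neomycin arrays were all lower and in 0 all higher. That direction depended on the scaling, since after quantile normalisation 2 were lower and 4 higher, and after median centring 3 and 2. Over all genes the counts lower and higher were 696 and 304 as deposited, 550 and 463 after quantile normalisation, and 514 and 477 after centring. The lowest of the list, named after its value was seen, was *FRM2*, a nitroreductase gene, which read 6.59, 6.63 and 6.22 and then 5.87, 6.01 and 5.79 (limma, adjusted p = 0.133).

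The lists for other Yap factors are short. The 4 Yap5 targets all had negative values within their error: *CCC1* was at −0.09, *TYW1*, an iron-sulfur enzyme of tRNA modification, at −0.31, the monothiol glutaredoxin gene *GRX4* at −0.08, and the metallothionein gene *CUP1-1* at −0.12 (limma, adjusted p from 0.533 to 0.859). The *CUP1-1* probe set also matches its repeated copies, and the gene is also on the Hsf1 list. Arrays overlapped for all 4, although without neomycin replicate 3 they were all lower for 3 of the 4, with 17.4% of all genes lying so, and the median was −0.18. The 3 Cin5 targets were positive: the glycerol dehydrogenase gene *GCY1* at 0.52 (adjusted p = 0.242), the glycerol phosphatase gene *GPP2* at 0.23 (adjusted p = 0.741) and *DCS2* at 0.66 (adjusted p = 0.280), with *GCY1* and *DCS2* above on every neomycin array, as 5.58% of all genes were. *GPP2* and *DCS2* are also on the list of Msn2 and Msn4 targets. Limma called 0 of the 3, against 0.514% of all genes, with 2 higher at an unadjusted p under 0.05, which 13.4% passed. Without neomycin replicate 1 limma called 2, when it called 2.18% of all genes higher.

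**Figure D5:**
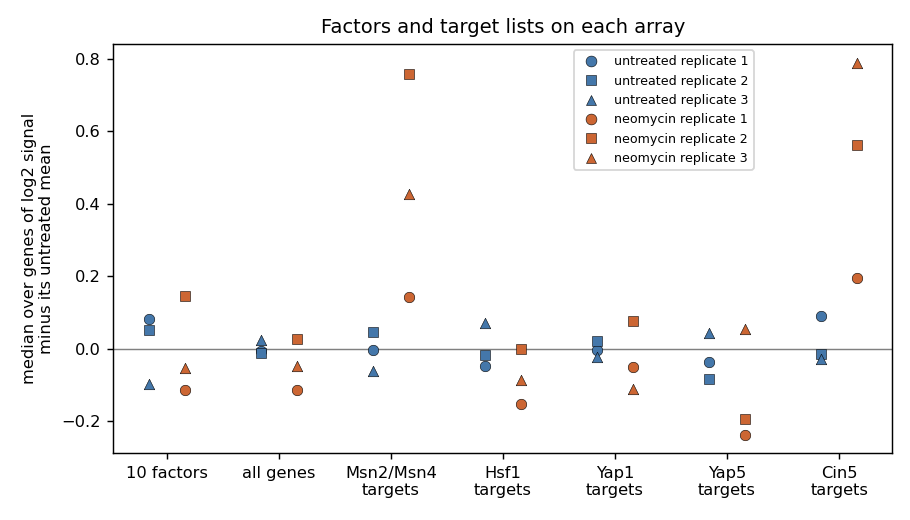
Median over genes of the log2 signal minus the gene's untreated mean (y axis) for the 10 factors, all genes and 5 target lists, one point per array. For Msn2/Msn4 targets the neomycin arrays stand at 0.14, 0.76 and 0.43, whereas the factors stand at −0.11, 0.14 and −0.05 and all genes at −0.11, 0.03 and −0.05.

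Genes that regulate the factors were measured on the same arrays. Of 20 genes that act on Msn2 and Msn4 (the Ras and protein kinase A pathway, 14-3-3 proteins, the Msn5 exportin, Snf1 and others), limma called 0, with 2 up and 2 down at an unadjusted p under 0.05, which 13.4% of all genes passed, and the ratio criteria took 0. Over all genes limma called 0.514% and the ratio criteria took 1.82%, so these counts of 0 are not particular to the regulators. The median change of the 20 was −0.00, from −0.15 to 0.07 with 1 array left out. *RAS1* was at −0.41 (adjusted p = 0.179) with all neomycin arrays lower, while *RAS2* was at 0.02, the exchange factor gene *CDC25* at −0.00 and the Ras GTPase activator gene *IRA1* at −0.08. Arrays did not overlap for 5 of the 20, with 2 (10%) higher and 3 (15%) lower against 5.58% and 12.8% of all genes. The kinase gene *YAK1* (0.43) and the cyclic AMP phosphodiesterase gene *PDE1* (0.38) were higher, and *RAS1*, *SNF1* (−0.26) and *BCY1* (−0.17), the inhibitory subunit of protein kinase A, were lower. Among 8 genes acting on Yap1 limma again called 0, against 0.514% of all genes. At an unadjusted p under 0.05, 0 were up and 1 was down, against 13.4% of all genes. The peroxidase gene *HYR1*, which relays oxidation to Yap1, was at −0.06, its partner gene *YBP1* at 0.04, the exportin gene *CRM1* at −0.17, and the Yap1 importin gene *PSE1* at −0.30 (limma, adjusted p from 0.318 to 0.922).

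Some of the other leucine zipper and stress factors had larger values than any of the 10, none of them passing limma's test on all 6 arrays. A further Yap factor, *ARR1* (also called *YAP8*), was at 0.10, and *GCN4*, the activator of amino acid synthesis, at 0.04. Of the 8 further leucine zipper genes limma called 0, against 0.514% of all genes. At an unadjusted p under 0.05, 3 were higher, against 13.4% of all genes in either direction. The arrays of these 3 were all higher, as in 5.58% of all genes: *HAC1* (0.36), the factor of the unfolded protein response, *ACA1* (0.38) and *MET28* (0.99), a cofactor of sulfur gene activation. *MET28* passed the ratio criteria at 2.12, from a low untreated mean of 4.94, and limma called it without neomycin replicate 1 (1.38, adjusted p = 0.0116). *SKO1* was at −0.03. Of 20 other stress factors limma called 0, against 0.514% of all genes. At an unadjusted p under 0.05, 5 were up and 0 down, against 13.4% of all genes. The first of that list were *SKN7* (−0.13), the oxidative stress partner of Yap1, *HOT1* (−0.12), of the osmotic response, *GIS1* (0.18), of the nutrient response, and *SKO1*. Arrays were all higher for *RLM1* (0.47), the factor of the cell wall integrity pathway, *XBP1* (0.82), a stress-induced repressor, *SMP1* (0.72) and *COM2* (0.39), and all lower for *SKN7* (limma, adjusted p from 0.141 to 0.632), which is 4 of 20 against 5.58% and 1 of 20 against 12.8% of all genes. *XBP1* is also on the list of Msn2 and Msn4 targets, and *SKN7* is also among the genes acting on Yap1. *SMP1* was called without neomycin replicate 1 (0.86, adjusted p = 0.0394) and after quantile normalisation (0.75, adjusted p = 0.0359).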

How the data were processed

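Total RNA of 6 cultures, 3 per group, was hybridised to 6 arrays. The deposited values are log2 signals that the authors made with GCRMA (version not given in the sources used here), which corrects background, normalises between arrays and summarises probes. Of 5716 probe sets, 218 name no gene and were not used, and for 47 genes with several the one with the highest mean was taken. Neomycin and untreated arrays were compared by limma (version 3.58.1, R 4.3.3; lmFit, eBayes, 2-sided, Benjamini-Hochberg over 5449 genes, adjusted p under 0.05), which was tested on simulated data. A ratio is that of mean linear signals. The methods do not state the settings of Cyber-T, which was rebuilt with windows of 101 genes, confidence 10 and 22 degrees of freedom.

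Named are all 10 factors, the first 4 genes of each list and those passing limma or the ratio criteria. For *MSN2*, *MSN4*, *HSF1* and *YAP1* the 3 best correlated genes above background whose SD is at least the median are also named. Further list genes were named after their values were seen, for arrays that did not overlap, calls in an alternative run or extreme values. Genes shared by the Msn2/Msn4 and Hsf1 lists are named as such. Some other genes also stand on several lists, so the counts of different lists are not separate. The factors and lists were chosen with earlier results of these arrays known. All 156 list genes were matched, *GPP2* as *HOR2*. Replicates are separate cultures, and their numbers were not taken as pairs. Alternatives were the replicate block, quantile normalisation, median centring, the mean of probe sets, leaving out the 1363 dimmest genes, an intensity trend, a robust prior, an adjusted p under 0.1, the ratio criteria, and leaving out each array. Promoter and protein sequences were not analysed here.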

Additional observations from a re-analysis of the deposited data

How the results depend on the processing

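Limma called 0 factors under every alternative run of it, and the ratio criteria also took 0. Without the dimmest genes limma did not test *CIN5*, *YAP5*, *YAP6* and *YAP7*. Over all genes limma called 23 higher and 5 lower, against 0 and 0 with the replicate block. It called 50 higher after quantile normalisation, 42 after median centring and 40 without the dimmest genes. With an intensity trend it called 48 and 14, and at an adjusted p under 0.1 it called 59 and 23. The ratio criteria, which rest on Cyber-T and not on limma, took 79 as higher and 20 as lower. With 1 array left out at a time limma called 0 to 119 higher and 0 to 23 lower, the highest counts coming without neomycin replicate 1. Deviations of same-numbered arrays correlated at −0.000302, −0.376 and 0.443, so the numbers were not taken as pairs. Untreated replicate 2 with neomycin replicate 1 gave 0.398, and untreated replicate 1 with neomycin replicate 2 gave 0.396. Together with the 0.443 of untreated and neomycin replicate 3, these values match each untreated array to 1 neomycin array. No run used that matching, since the replicate block followed the numbers. The other differently numbered arrays gave −0.432 to 0.000663, and what any of these arrays share was not tested. The replicate block gave exact p of 0.75, 0.75, 0.75 and 0.25 for the 4 paralog pairs.

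Of the signs, that of *MSN4* turned to 0.0275 after quantile normalisation and 0.0121 after centring. With 1 array left out the log2 fold changes ran from −0.12 to 0.12 for *MSN4*, from −0.26 to 0.0755 for *YAP1*, from −0.21 to 0.0016 for *YAP7* and from −0.13 to 0.24 for *YAP6*, and those of the other 6 factors kept their sign. The paralog differences ran from −0.055 to 0.24 for *MSN4* minus *MSN2*, from −0.0559 to 0.36 for *CAD1* minus *YAP1* and from −0.41 to 0.14 for *YAP6* minus *CIN5*. The median of the factors ran from −0.12 to 0.14. Factors with all neomycin arrays higher numbered 0 to 3 (*HSF1*, *CAD1* and *CIN5* without untreated replicate 2), and all lower 1 to 3 (*YAP1*, *YAP3* and *YAP7* without neomycin replicate 2), when 11.2% and 27.5% of all genes lay so. Of the 39 Msn2/Msn4 targets limma called 1, against 2 after quantile normalisation or centring and 3 with an intensity trend. With the replicate block it called 0 of the 39, where it also called 0 of all genes. Without the dimmest genes, which also shortened the list, it called 3. The medians ran from −0.18 to −0.0477 for Hsf1 targets, from 0.29 to 0.61 for Msn2/Msn4 targets and from −0.12 to −0.022 for regulators of Yap1. The cause was not tested in any of these.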

Other observations

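The 10 transcripts varied together in part over the 6 arrays, which share their RNA and scaling. *YAP1* and *YAP7* had a Pearson r of 0.983, *MSN2* correlated with *YAP7* (0.838) and *YAP3* (0.813), and *HSF1* ran opposite to *YAP3* (−0.808), *YAP7* (−0.764) and *YAP1* (−0.723). Among 2553 or 2554 genes, *MSN2* was most like *PDR5* (0.986), the drug efflux pump, *PEX17* (0.979), of peroxisomal import, and *URH1* (0.967), a nucleosidase. *MSN4* was most like *BUB2* (0.955), of the mitotic exit checkpoint, *LDS2* (0.944) and *IRC10* (0.932). *HSF1* was most like *VPS75* (0.996), a histone chaperone, *DRE2* (0.985), of iron-sulfur cluster assembly, and *MSG5* (0.985), a phosphatase of MAP kinases. *YAP1* was most like *PCI8* (0.982), *BTT1* (0.974) and *TAM41* (0.972). An r over 0.9 was reached by 24 genes for *MSN2*, 6 for *MSN4*, 42 for *HSF1* and 66 for *YAP1*. These genes are the best of many over 6 arrays, and the coefficients are a description.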
